A study of Rattus norvegicus with 4 samples.

Results

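The collagens are the main structural proteins of the extracellular matrix, and the collagen genes of the rat carotid body (CB) are described here at 2 ages. The CB lies where the carotid artery divides, and its glomus cells respond when oxygen in the blood falls. Members were the genes of the count table named Col, a number, a and a number (Col1a1, for example), which gave 42 of 32883 genes, 10 of fibrillar collagens, 6 of the basement membrane collagen (Col4) and 26 of other types. Col1a2, Col6a3 and Col21a1 were not analysed here. The neonatal group was CBs of Sprague Dawley pups at postnatal day 5 and the adult group was CBs of Sprague Dawley rats at day 21, with no treatment given for either, and there were 2 libraries per age and 4 in all. Per the design text of the series each neonatal library was a pool of 6 pups and each adult library a pool of 3 rats, part of a litter having been raised to day 21, and the labels give an RNA input of 1000 ng and call the libraries biological replicates. The study's methods give larger pools, more replicates and a lower RNA input, and say that both sexes were included, so single animals and sexes cannot be told apart within a library.

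A collagen is a trimer of α chains, each made by its own gene and built on repeats that start with glycine. Fibrillar chains (types I, II, III, V, XI, XXIV and XXVII) assemble into the cross-banded fibrils that bear tension, FACIT chains (fibril-associated collagens, such as types IX, XII and XIV) sit on their surface, and type IV chains form the sheet-like network of basement membranes under endothelium and around glia. In the CB, collagen fills the stroma between the lobules of glomus cells and the capillaries that run through them. Which chains a tissue makes sets which trimers it can build, because each trimer type needs its own set of chains.

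The estimated counts summed to between 36286178 and 39476111 per library after rounding. CPM below are the counts relative to the library total, scaled by the TMM method of edgeR, and changes come from edgeR's quasi-likelihood test on the 13843 genes that reached 1 CPM in 2 or more libraries, with adjustment by Benjamini-Hochberg across these genes. Log2 fold changes are neonate over adult, so a positive value is a higher level in neonates. A gene was called, and is said to have risen or fallen, when its adjusted p was under 0.05 and the change was 2-fold or more. With 2 libraries against 2, an exact permutation test of a single value cannot give a two-sided p below 0.333, and since the table gives no transcript lengths, CPM are compared between ages and not between genes. The defining markers of glomus cells were present: all 10 on the list were tested, with summed levels of 4825 to 6347 CPM in neonates and 5164 to 6074 CPM in adults. The sum of the parathyroid markers was 1796 CPM in the first neonatal library and 212 CPM in the other, against 0.0245 and 0.0504 CPM in adults, so values without a library are given where leaving it out changes a call of a named gene.

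Of the 42 collagen genes, 36 passed the filter, and the other 6 did not reach 1 CPM in 2 libraries. Col6a5 had 23 to 37 counts per library, Col9a1 27 to 33, Col10a1 5 to 19 and Col19a1 0 to 9. Col25a1 had 16 counts in neonate replicate 1 and 0 in the other libraries. Col23a1 had 0 counts in all 4 libraries, which allows up to 3 counts, or 0.0760 to 0.0827 CPM, for counting error only.

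The genomic sequence beside the paired type IV genes is shown first, because the chains of that type differed from each other between ages. In the RefSeq gene table of the assembly GRCr8, Col4a1 and Col4a2 are neighbours that start back to back on opposite strands, as do Col4a3 and Col4a4 and, further apart, Col4a5 and Col4a6. The starts of Col4a1 and Col4a2 are 76 bases apart, those of Col4a3 and Col4a4 are 412 bases apart and those of Col4a5 and Col4a6 are 1263 bases apart, counted between the outermost annotated starts. These stretches are from RefSeq on GRCr8, 5′ to 3′, and not from the build the reads were mapped to (Rnor_6.0). They are the whole stretch between the starts of Col4a1 and Col4a2 (chr16:84885521-84885596, + strand, the sense of Col4a1), the 250 bases before the start of Col4a3 (chr9:91323740-91323989, + strand), the 142 bases before the outermost start of Col4a5 that its promoter window holds (chrX:109907109-109907250, + strand) and the 207 such bases before Col4a6 (chrX:109905988-109906194, - strand). Capitals mark GGGCGG, the core of a GC box, or its reverse complement.
Col4a1 and Col4a2, between the starts: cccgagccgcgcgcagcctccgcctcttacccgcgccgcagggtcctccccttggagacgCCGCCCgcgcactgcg
Col4a3, upstream: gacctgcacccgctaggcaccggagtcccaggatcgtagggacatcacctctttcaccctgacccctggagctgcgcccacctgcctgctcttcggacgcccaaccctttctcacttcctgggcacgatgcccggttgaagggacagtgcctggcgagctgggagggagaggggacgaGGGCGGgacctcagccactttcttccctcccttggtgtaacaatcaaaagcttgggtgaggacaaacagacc
Col4a5, upstream: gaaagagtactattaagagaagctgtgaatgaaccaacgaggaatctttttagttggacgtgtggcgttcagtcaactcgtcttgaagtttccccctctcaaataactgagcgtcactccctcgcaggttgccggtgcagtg
Col4a6, upstream: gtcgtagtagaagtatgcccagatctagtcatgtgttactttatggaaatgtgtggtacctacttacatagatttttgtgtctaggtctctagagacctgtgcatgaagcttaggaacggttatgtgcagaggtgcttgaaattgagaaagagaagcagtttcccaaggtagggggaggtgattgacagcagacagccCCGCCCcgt
The stretch that Col4a1 and Col4a2 share held 78.9% G or C and 1 GC box core. Those before Col4a3 and Col4a6 held 1 such core each, with 62.0% and 46.4% G or C, and that before Col4a5 held none, with 47.9% G or C. The promoter windows of Col4a5 and Col4a6 are set on starts further inside the gene, so the printed stretches are parts of these windows, and the whole window of Col4a5 does hold GGGCGG.

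A promoter window (250 bases before to 50 after the start) was matched by symbol for 33 of the 42 collagen genes. GGGCGG was found on either strand in 19 of them (57.6%), against 36% of the 27457 genes with a window. CCAAT was found in 10 (30.3%, against 39.6% of all genes) and TATAAA in 3 (9.09%, against 15.3%). Collagen windows held a median of 59.7% G or C and all windows 52.3%. These are matches of letters, and none of them is shown to be a binding site.

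All collagen genes together took 1.607% of the counts in neonate replicate 1 (95% Wilson interval 1.603 to 1.611), 1.900% in neonate replicate 2 (1.896 to 1.904), 2.175% in adult replicate 1 (2.17 to 2.18) and 2.417% in adult replicate 2 (2.412 to 2.422). These are shares of raw library totals, and both neonatal shares lay below both adult shares. Transcripts of the mitochondrial genome, from 13 coding genes, made up 15.6 to 18.7% of neonatal and 9.06 to 9.08% of adult counts. With these left out the collagen shares were 1.98 and 2.25% in neonates and 2.39 and 2.66% in adults, which still did not overlap. Neither set of shares is scaled by TMM, whose factors were 0.902 and 0.935 in neonates and 1.08 and 1.1 in adults. That scaling raises neonatal levels relative to adult ones. On it the ages overlapped, with the collagen total of neonate replicate 2 slightly above that of adult replicate 1. The lack of overlap thus holds for raw totals and not for CPM. Col1a1 and Col3a1, the main fibril chains analysed, made up 67.0% (66.9 to 67.1) and 70.1% (70.0 to 70.2) of the collagen counts in neonates and 72.7% (72.6 to 72.8) and 72.8% (72.7 to 72.9) in adults. The intervals cover counting error only. In these whole-organ pools a change in a level and a change in the number of cells that make it cannot be told apart.

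Beside this modest difference in the raw share, single collagens moved in both directions. Of the 36 tested, 16 were called (44.4%), against 20.8% of all genes tested. Called higher in neonates were 8 of the 36, against 1063 of all 13843 genes (7.68%), and called lower were 8 of the 36, against 1822 (13.2%). At an adjusted p under 0.05 without a minimum fold, 14 of the 36 were higher and 11 lower, 69.4% in all. Of all 13843 genes 4325 (31.2%) were higher and 4300 (31.1%) lower, 62.3% in all. The median log2 fold change over the tested collagens was -0.09, and the median size of the change regardless of sign was 0.90, against 0.49 over all genes tested. The 2 ages did not overlap for 30 of the 36, or 83.3%, against 83.0% of all genes, so separation by age alone was no more frequent than the background.

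**Figure D1:**
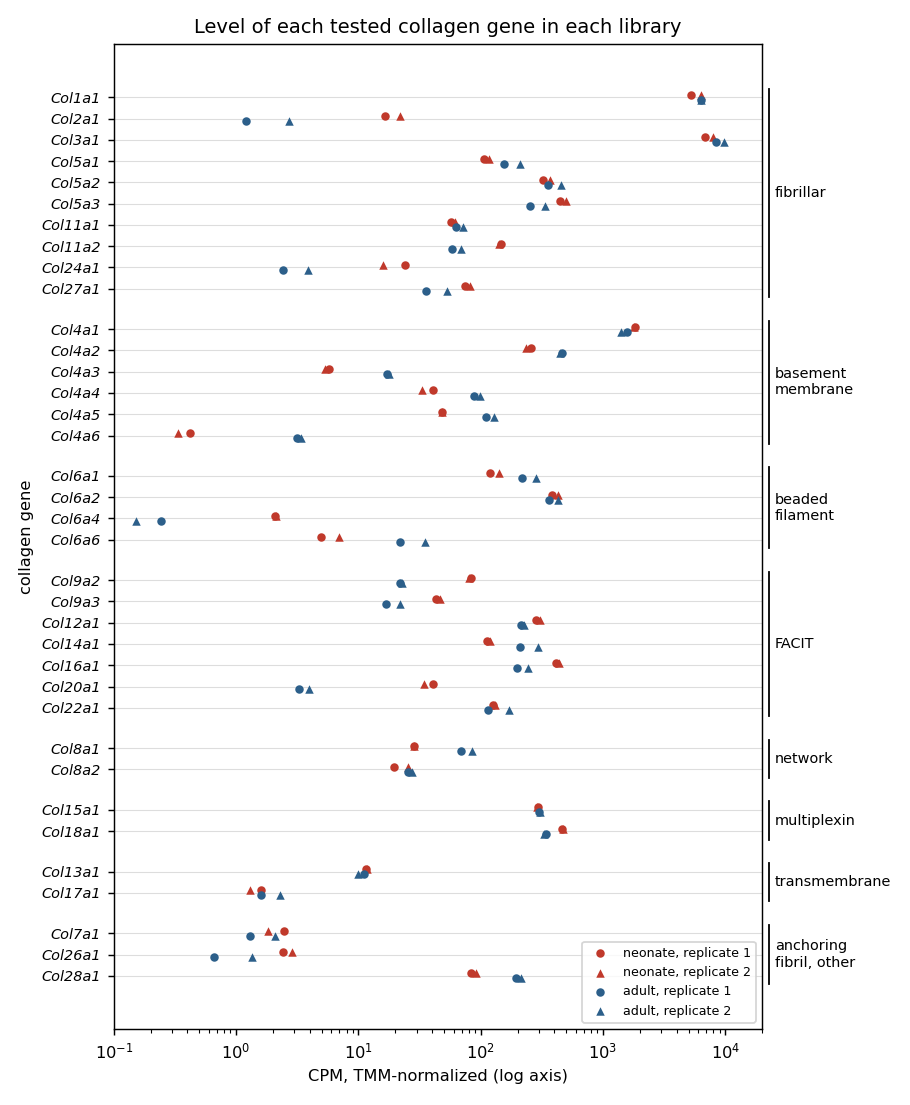
Level of each of the 36 tested collagen genes in CPM (log axis) in each of the 4 libraries, grouped by class. Col1a1 and Col3a1 lie close together at both ages, while Col2a1, Col24a1, Col20a1 and Col6a4 lie far higher in the neonatal libraries and Col4a6 and Col6a6 far higher in the adult libraries.

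The most abundant fibril collagens did not pass the test. Col1a1 (ENSRNOG00000003897), a chain of type I collagen, had 5198 and 6314 CPM in neonates and 6275 and 6324 CPM in adults, which is -0.13 on the log2 scale (SE 0.12, edgeR adjusted p = 0.38). The ages overlapped. Col3a1 (ENSRNOG00000003357), the chain of the homotrimeric type III collagen of pliable tissue, had 6768 and 7971 CPM in neonates and 8393 and 9769 CPM in adults, with -0.30 (SE 0.13, edgeR adjusted p = 0.071). Its ages did not overlap, and the adjusted p was 0.0067 in DESeq2 and 0.046 in limma-voom, still well under 2-fold. The Col3a1/Col1a1 ratio of counts was 1.30 and 1.26 in neonates and 1.34 and 1.54 in adults.

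In contrast, 3 of the 10 fibrillar genes rose in neonates and none fell, 30% called against 20.8% of all genes. Col2a1 (ENSRNOG00000058560), the chain of type II collagen and best known from cartilage, had 16.6 and 22 CPM in neonates and 1.2 and 2.70 CPM in adults, 9.91-fold higher (log2 fold change 3.31, SE 0.33, edgeR adjusted p = 4.9e-05). Both neonatal libraries stood well above both adult libraries. The log2 fold change of Col2a1 was 2.81 without adult replicate 1 and 3.98 without adult replicate 2, so its size depends on both adult libraries. Col24a1 (ENSRNOG00000014143), a minor fibrillar chain known from developing bone and cornea, had 24.0 and 16.0 CPM in neonates and 2.43 and 3.86 CPM in adults, 6.36-fold higher (log2 fold change 2.67, SE 0.27, edgeR adjusted p = 5.1e-05). Col11a2 (ENSRNOG00000000463), a chain of the type XI collagen that helps to start fibrils, had 147 and 140.3 CPM in neonates and 58.1 and 69.2 CPM in adults, 2.26-fold higher (log2 fold change 1.18, SE 0.097, edgeR adjusted p = 1.8e-05). Some of its estimated counts are fractional, as arises where reads are shared between sequences.

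The minor fibril chains of types V, XI and XXVII did not move alike. Col5a1 was lower in neonates by 0.71 on the log2 scale (SE 0.13, edgeR adjusted p = 0.0014), at 107 and 117 CPM against 155 and 210.3 CPM. Col5a3 was higher by 0.69 (SE 0.13, edgeR adjusted p = 0.0017), at 446 and 498 CPM against 252 and 334 CPM. Neither reached a 2-fold change, but their counts moved apart: Col5a3/Col5a1 was 4.19 and 4.26 in neonates and 1.63 and 1.59 in adults, a 2.63-fold shift of the ratio. Col5a2, the partner of Col5a1 in the common form of type V collagen, was at -0.22 (SE 0.12, edgeR adjusted p = 0.15). Col11a1 was at -0.18 (SE 0.099, edgeR adjusted p = 0.14), so Col11a2/Col11a1 was 2.57 and 2.26 in neonates and 0.921 and 0.958 in adults. Col27a1, a chain of thin non-striated fibrils of growing cartilage, was higher at 73.9 and 82.1 CPM against 35.7 and 53.4 CPM (log2 fold change 0.81, SE 0.17, edgeR adjusted p = 0.0025). It passed 2-fold without adult replicate 2, at 1.10.

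**Figure D2:**
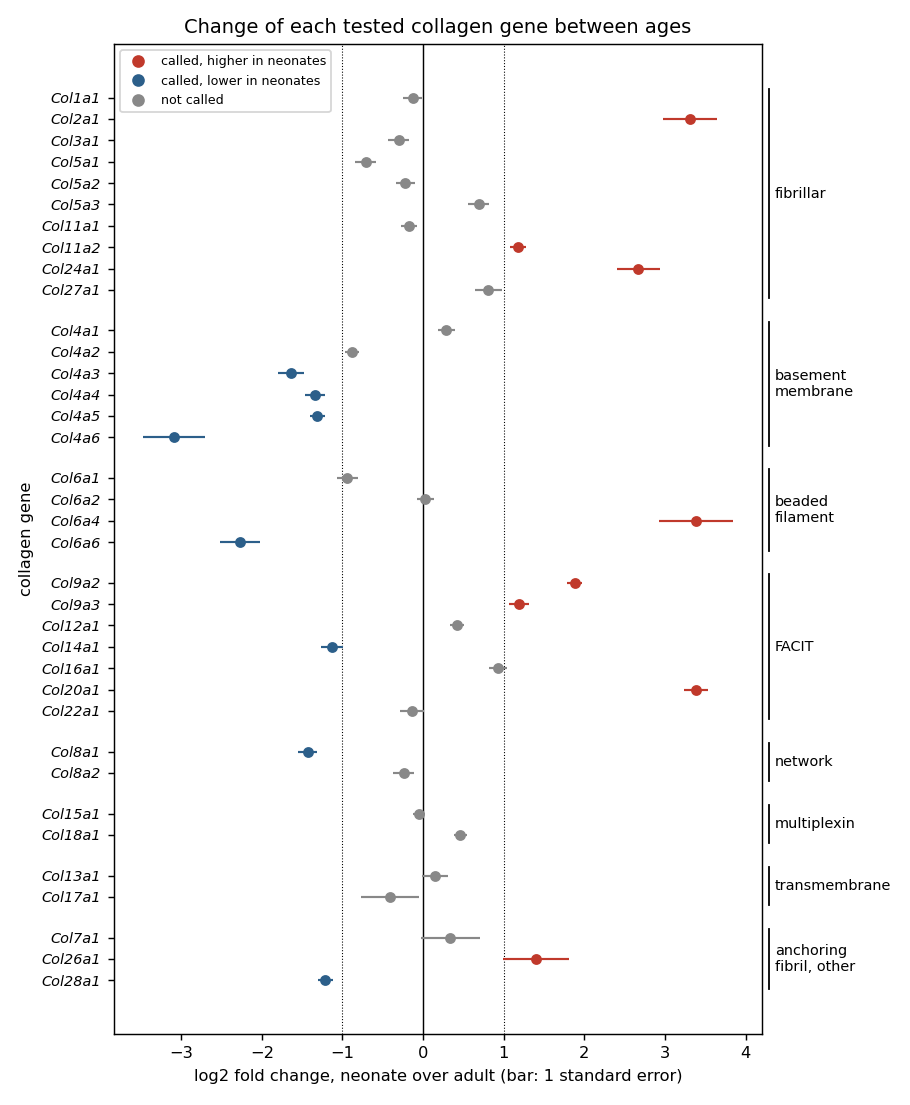
Log2 fold change (neonate over adult) with 1 standard error for each of the 36 tested collagen genes, by class, with dotted lines at a 2-fold change. The 8 genes called higher and the 8 called lower are coloured, and 4 of the 6 basement membrane genes are called lower while Col4a1 lies at 0.29.

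The type IV genes of the basement membrane differed from each other. Of the 6, 4 fell in neonates and none rose, 66.7% called against 20.8% of all genes, with a median log2 fold change of -1.32. Col4a3 (ENSRNOG00000015365), Col4a4 (ENSRNOG00000014851) and Col4a5 (ENSRNOG00000018951), whose chains form a trimer of their own that is known from the kidney filter, were lower by 1.64, 1.34 and 1.31 on the log2 scale (SE 0.16, 0.12 and 0.095). The edgeR adjusted p of these 3 were 4.1e-05, 2.5e-05 and 1.1e-05. For Col4a3 the levels were 5.80 and 5.37 CPM in neonates and 17.1 and 17.7 CPM in adults. Col4a4 had 40.6 and 33.0 CPM in neonates and 87.7 and 99.0 CPM in adults. Those of Col4a5 were 48.6 and 47.8 CPM against 110.0 and 128 CPM. For all 3 genes both neonatal libraries lay below both adult libraries, and some estimated counts of Col4a3 and Col4a4 are fractional.

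Col4a6 (ENSRNOG00000056772), known from basement membranes of epithelium and smooth muscle, showed the largest fall of the tested collagens. It had 0.422 and 0.334 CPM (15 and 12 counts) in neonates and 3.12 and 3.38 CPM in adults, 8.52-fold lower in neonates (log2 fold change -3.09, SE 0.38, edgeR adjusted p = 1.5e-04). The test of Col4a6 needs both adult libraries, since without either of them only 1 library reaches 1 CPM.

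The most abundant trimer of basement membranes joins the chains of Col4a1 and Col4a2, whose genes share the stretch of 76 bases printed above. Col4a2 (ENSRNOG00000023972) had 259.7 and 235 CPM in neonates and 462 and 449 CPM in adults, lower in neonates by 0.88 on the log2 scale (SE 0.087, edgeR adjusted p = 4.6e-05), just under 2-fold. Col4a1 (ENSRNOG00000016281) had 1835 and 1799 CPM in neonates and 1566 and 1404 CPM in adults, 0.29 on the log2 scale in the other direction (SE 0.10, edgeR adjusted p = 0.030). That small difference was not past an adjusted p of 0.05 in edgeR without neonate replicate 1 (0.077), without adult replicate 2 (0.23) or with a mean of at least 5 CPM (0.055), and it was 0.05 on the log2 scale when libraries were scaled by their size alone (0.71). Within a library, where scaling plays no part, Col4a1/Col4a2 was 7.07 and 7.67 in neonates and 3.39 and 3.13 in adults. The ratio therefore changed 2.26-fold, or 1.18 on the log2 scale, while the largest gap between libraries of an age was 0.12. Its absolute size depends on the lengths of both transcripts, which do not enter the change between ages.

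The make-up of the type IV counts shifted with age. Col4a1 took 83.8% (83.5 to 84.0) and 84.9% (84.6 to 85.1) of the type IV counts in neonates and 69.7% (69.4 to 70.0) and 66.8% (66.5 to 67.1) in adults. Col4a3, Col4a4 and Col4a5 together took 4.34% (4.20 to 4.49) and 4.06% (3.92 to 4.20) in neonates and 9.57% (9.38 to 9.76) and 11.7% (11.4 to 11.9) in adults. The back-to-back pair Col4a3/Col4a4 kept nearer to a common course, with ratios of 0.143 and 0.163 in neonates and 0.195 and 0.178 in adults. Col4a4/Col4a5, 2 genes on different chromosomes, overlapped between ages (0.835 and 0.690 against 0.797 and 0.771). Col4a6/Col4a5 was 0.00869 and 0.00699 in neonates and 0.0283 and 0.0263 in adults, a 3.50-fold shift of the ratio. The endothelial marker list had none of its 7 tested genes called and summed to 1189.6 to 1226 CPM in neonates and 1114 to 1151 CPM in adults. Smooth muscle and pericyte markers summed to 1072 to 1147 CPM and 1184 to 1369 CPM. Of these 2 of 9 were called (22.2%, against 20.8% of all genes), both lower in neonates. Schwann and sustentacular glia markers summed to 1139.9 and 2242 CPM in neonates and 1926 and 2056 CPM in adults, with 1 of 7 called (14.3%), lower in neonates. The part of these cells in the type IV changes was not tested.

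**Figure D3:**
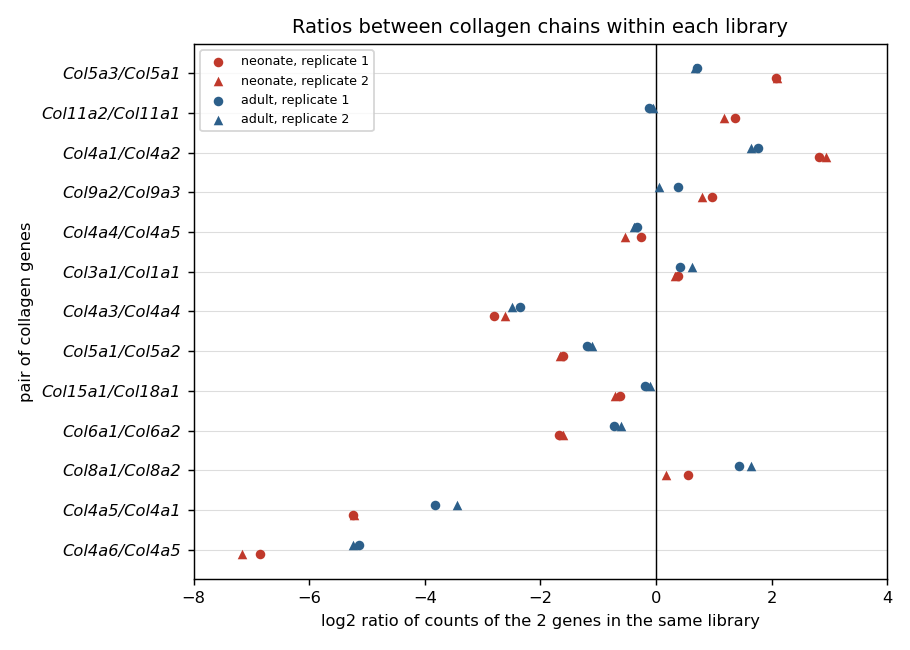
Log2 ratio of the counts of 2 collagen genes within the same library for 13 pairs, neonates in red and adults in blue. The 2 ages are parted in all pairs but Col4a4/Col4a5, and Col4a1/Col4a2 lies at a mean of 2.88 in neonates and 1.70 in adults.

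Type VI collagen forms beaded filaments beside cells and basement membranes, and its genes split as well. Col6a1 (ENSRNOG00000001249) had 119.9 and 141 CPM in neonates and 219 and 281 CPM in adults, lower by 0.94 on the log2 scale (SE 0.13, edgeR adjusted p = 2.3e-04). Its neighbour and partner chain Col6a2 (ENSRNOG00000001254) had 383 and 428 CPM in neonates and 364 and 429.9 CPM in adults, 0.03 on the log2 scale (SE 0.11, edgeR adjusted p = 0.81), with ages that overlapped. Accordingly Col6a1/Col6a2 was 0.313 and 0.329 in neonates and 0.603 and 0.654 in adults, a 1.96-fold shift. Col6a1 lay at the edge of the 2-fold limit and passed it without neonate replicate 2 (-1.04) or without adult replicate 1 (-1.14).

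The genes of the alternative type VI chains, Col6a4, Col6a5 and Col6a6, lie next to each other in the gene table, and Col6a4 and Col6a6 moved in opposite directions while Col6a5, with 23 to 37 counts per library, was not tested and overlapped between ages. Col6a6 (ENSRNOG00000023007) had 4.90 and 6.90 CPM in neonates and 21.7 and 35.2 CPM in adults, 4.81-fold lower (log2 fold change -2.27, SE 0.25, edgeR adjusted p = 7.3e-05). Col6a4 (ENSRNOG00000031782) had 2.08 and 2.12 CPM (74 and 76 counts) in neonates and 0.245 and 0.151 CPM (10 and 6 counts) in adults, 10.4-fold higher (log2 fold change 3.38, SE 0.46, edgeR adjusted p = 2.5e-04). The ages did not overlap for Col6a4 or for Col6a6. Col6a4 falls under the filter without either neonatal library.

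As examples of 1 strongly changed gene in each direction, the 250 bases before the start of Col6a6 (chr8:115352162-115352411, - strand, GRCr8, RefSeq) and of Col24a1 (chr2:236872333-236872582, + strand) are shown, with GGGCGG or its reverse complement in capitals.
Col6a6, upstream: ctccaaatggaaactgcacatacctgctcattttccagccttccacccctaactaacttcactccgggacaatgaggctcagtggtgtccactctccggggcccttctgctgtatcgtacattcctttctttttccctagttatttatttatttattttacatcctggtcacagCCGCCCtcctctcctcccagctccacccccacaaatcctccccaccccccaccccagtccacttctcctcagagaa
Col24a1, upstream: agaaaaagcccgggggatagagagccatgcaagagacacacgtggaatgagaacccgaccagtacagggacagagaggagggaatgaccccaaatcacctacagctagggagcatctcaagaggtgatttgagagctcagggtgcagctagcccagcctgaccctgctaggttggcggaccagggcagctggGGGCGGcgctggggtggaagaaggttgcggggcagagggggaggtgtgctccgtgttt
Each stretch held 1 such match, with 51.6% G or C before Col6a6 and 60.0% before Col24a1.

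Among FACIT genes, which coat fibrils, 3 of the 7 tested rose and 1 fell, 57.1% called against 20.8% of all genes. Col20a1 (ENSRNOG00000010326), a little studied member, had 40.9 and 34.4 CPM in neonates and 3.24 and 3.93 CPM in adults, 10.5-fold higher (log2 fold change 3.39, SE 0.15, edgeR adjusted p = 1.5e-06). This was the largest rise of the tested collagens in edgeR's estimate. Col9a2 (ENSRNOG00000011502) and Col9a3 (ENSRNOG00000009531), chains of the type IX collagen that decorates type II fibrils, rose 3.67-fold and 2.29-fold. Col9a2 had 83.8 and 80.3 CPM in neonates and 22 and 22.6 CPM in adults (log2 fold change 1.88, SE 0.092, edgeR adjusted p = 2.0e-06). The levels of Col9a3 were 42.7 and 46.2 CPM against 16.9 and 22 CPM (log2 fold change 1.19, SE 0.13, edgeR adjusted p = 7.7e-05), and without adult replicate 1 it was just under 2-fold at 0.99. Their partner Col9a1, at 0.752 to 0.929 CPM in neonates and 0.687 to 0.781 CPM in adults, did not pass the filter, and Col9a1/Col9a2 was 0.0111 and 0.00936 in neonates and 0.0312 and 0.0345 in adults.

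Col14a1 (ENSRNOG00000026415), a FACIT chain of tendon and skin, fell in neonates, at 112 and 118 CPM against 209.7 and 294 CPM (log2 fold change -1.13, SE 0.14, edgeR adjusted p = 1.5e-04). Without adult replicate 2 it was at -0.89 and no longer past 2-fold. Col16a1 was higher by 0.93 on the log2 scale (SE 0.11, edgeR adjusted p = 1.0e-04), at 409.7 and 436 CPM in neonates and 199.8 and 245 CPM in adults, and it passed 2-fold without adult replicate 2, at 1.06. Col12a1, a chain of dense connective tissue under load, was higher by 0.42 (SE 0.085, edgeR adjusted p = 0.0024) and Col22a1 was at -0.14 (SE 0.15, edgeR adjusted p = 0.45).

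Col2a1, Col9a2, Col9a3, Col11a2 and Col27a1 are all known from cartilage, so the cartilage marker list is set beside them. Of its 10 genes 4 were tested, and the list summed to 8.96 and 12.7 CPM in neonates and 10.3 and 10.5 CPM in adults. Matn1 had 0 counts in all 4 libraries. Of the 4 tested, 1 was called (25%, against 20.8% of all genes). This was Acan, which encodes the main cartilage proteoglycan, lower in neonates (log2 fold change -2.20, edgeR adjusted p = 0.0014). Hapln1 (-0.02, edgeR adjusted p = 0.94), Sox9 (0.51, edgeR adjusted p = 0.23) and Comp (0.08, edgeR adjusted p = 0.86) were not called. Of those under the filter, Snorc had 38 and 74 counts in neonates and 1 and 7 in adults, with no overlap, and Chad, Cnmd, Ucma and Matn3 overlapped between ages with 0 to 52 counts per library. The part of cartilage cells in the collagen changes was not tested. Tendon markers summed to 39.4 to 45.4 CPM in neonates and 55.4 to 69.9 CPM in adults, with 1 of 4 called higher in neonates and 1 lower (50% called). Bone markers summed to 36.9 to 37.8 CPM and 54.5 CPM, with 1 of 6 called higher and 2 lower (50% called).

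The other collagens held 1 further rise and 2 further falls. Col8a1 (ENSRNOG00000039668), a chain of the short network collagen made by vessel walls, had 28.3 and 28.5 CPM in neonates and 68.9 and 84.7 CPM in adults, 2.70-fold lower (log2 fold change -1.43, SE 0.12, edgeR adjusted p = 1.6e-05). Col8a2, its partner, was at -0.24 (SE 0.13, edgeR adjusted p = 0.15), and Col8a1/Col8a2 went from 1.46 and 1.13 in neonates to 2.70 and 3.11 in adults. Col28a1 (ENSRNOG00000033618), known from the basement membranes around Schwann cells of peripheral nerve, had 83.8 and 92.2 CPM in neonates and 193 and 215 CPM in adults, 2.32-fold lower (log2 fold change -1.21, SE 0.088, edgeR adjusted p = 1.0e-05). Col26a1 (ENSRNOG00000001422) rose 2.63-fold, at 2.42 and 2.84 CPM against 0.663 and 1.34 CPM (log2 fold change 1.40, SE 0.41, edgeR adjusted p = 0.016). Without adult replicate 1 it was at 0.95 (edgeR adjusted p = 0.13), so its call rests on that library.

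Perineurial markers, for the sheath around nerve bundles, summed to 333 to 364 CPM in neonates and 559.7 to 665 CPM in adults. Of 3 tested 1 was called (33.3%, against 20.8% of all genes), lower in neonates, and Lypd2 was at 0 counts. Their part in the change of Col28a1 was not tested.

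The multiplexins Col15a1 and Col18a1, proteoglycan collagens of vessel basement membranes, and the membrane-spanning collagens changed little. Col15a1 was at -0.05 (SE 0.078, edgeR adjusted p = 0.59), with 296 and 288 CPM in neonates and 299 and 305 CPM in adults. Col18a1, whose end fragment is endostatin, was higher by 0.46 on the log2 scale (SE 0.082, edgeR adjusted p = 0.0011), with 458 and 469.8 CPM against 343 and 329.7 CPM. Col13a1 (0.15, SE 0.16), Col17a1 (-0.41, SE 0.36) and the anchoring fibril gene Col7a1 (0.34, SE 0.37) had edgeR adjusted p of 0.44, 0.35 and 0.45. Col15a1/Col18a1 was 0.645 and 0.613 in neonates and 0.872 and 0.925 in adults.

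Scaling by library size alone moved the median of all genes to -0.25 on the log2 scale, which bears on collagens near a limit. The calls were then 6 higher and 10 lower, in place of 8 and 8, and over all genes 704 and 2549, in place of 1063 and 1822. Col11a2 (0.93) and Col9a3 (0.95) then fell short of 2-fold, while Col4a2 (-1.13) and Col6a1 (-1.19) passed it. Each of these 4 moved by about as much as the median of all genes.

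The genes that fold, cut, bind and degrade collagen were counted in 5 lists. Chains are hydroxylated and folded in the endoplasmic reticulum, trimmed and cross-linked outside the cell, bound by integrins and discoidin receptors, and broken down by metalloproteinases that the TIMPs inhibit. Of the 20 folding and hydroxylation genes, all tested, 1 rose and 1 fell, 10% called against 20.8% of all genes (7 were higher and 4 lower at an adjusted p under 0.05), with a median log2 fold change of -0.04. Of the 3 catalytic subunits of prolyl hydroxylase, P4ha2 was lower in neonates by 0.38 on the log2 scale (SE 0.087, edgeR adjusted p = 0.0045), P4ha1 fell from 56.6 and 65.7 CPM in adults to 27.9 and 30.3 CPM in neonates (log2 fold change -1.07, SE 0.11, edgeR adjusted p = 4.6e-05) and P4ha3 was at 2.28 and 2.84 CPM in neonates against 0.515 and 1.03 CPM in adults (1.72, SE 0.42, edgeR adjusted p = 0.0065). Without adult replicate 2, P4ha1 was at -0.99, and without adult replicate 1, P4ha3 was at 1.28 (edgeR adjusted p = 0.058). Serpinh1, the collagen chaperone HSP47, was at 0.02 (SE 0.091, edgeR adjusted p = 0.84), and P3h3, of the prolyl 3-hydroxylase family, at 0.92 (SE 0.077, edgeR adjusted p = 2.1e-05); both were chosen after their values were seen.

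Cleavage and cross-linking genes showed 2 falls and no rise among 9 tested, 22.2% called against 20.8% of all genes (3 higher and 4 lower at an adjusted p under 0.05), with a median of -0.19. Loxl2, a lysyl oxidase that cross-links type IV collagen among others, had 1.77 and 1.31 CPM in neonates and 5.57 and 8.52 CPM in adults (log2 fold change -2.19, SE 0.32, edgeR adjusted p = 3.7e-04). Tll1, a procollagen protease, had 1.91 and 2.59 CPM against 8.07 and 10.8 CPM (log2 fold change -2.07, SE 0.27, edgeR adjusted p = 2.0e-04). Both were lower in each neonatal library than in each adult library. Adamts2, which removes the amino-terminal propeptide, was lower by 0.88 on the log2 scale (SE 0.10, edgeR adjusted p = 1.2e-04) and passed 2-fold without adult replicate 1 (-1.02) and under library size alone (-1.12).

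Among 8 tested collagen receptors 4 fell and none rose, 50% called against 20.8% of all genes (1 higher and 6 lower at an adjusted p under 0.05), with a median of -0.86. The integrin chain Itga1, which binds type IV collagen, had 5.01 and 3.87 CPM in neonates and 14.6 and 21.9 CPM in adults (log2 fold change -2.04, SE 0.24, edgeR adjusted p = 1.0e-04). The discoidin receptor Ddr2, which binds fibrillar collagen, had 4.03 and 4.59 CPM against 11.4 and 17.3 CPM (-1.73, SE 0.24, edgeR adjusted p = 2.7e-04), and Itga11 was at -1.48 (SE 0.31, edgeR adjusted p = 0.0027). The remaining gene called was Itga2, at -1.22 (SE 0.34, edgeR adjusted p = 0.013), which was at -0.98 without neonate replicate 2 and at -1.11 (edgeR adjusted p = 0.076) without adult replicate 2. Itga10 passed 2-fold only without adult replicate 2, at 1.10.

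In the breakdown list 2 of 10 tested genes fell and none rose, 20% against 20.8% of all genes (1 higher and 6 lower at an adjusted p under 0.05), with a median of -0.37. The called genes were the metalloproteinase inhibitors Timp3 and Timp4, with Timp3 at 74.7 and 85.8 CPM in neonates against 236 and 261 CPM in adults (log2 fold change -1.63, SE 0.095, edgeR adjusted p = 3.9e-06), and Timp4 at 5.41 and 4.45 CPM against 10.5 and 13.4 CPM (-1.28, SE 0.22, edgeR adjusted p = 8.5e-04). Mmp14, a membrane-bound collagenase, was lower by 0.95 on the log2 scale (SE 0.089, edgeR adjusted p = 3.5e-05) and passed 2-fold without adult replicate 1 (-1.07) and under library size alone (-1.19). Mmp13, a collagenase named after its values were seen, did not pass the filter, with 49 and 31 counts in neonates and 0 in both adult libraries.

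Proteins that sit on or beside fibrils gave 2 rises and 2 falls among 14 tested, 28.6% called against 20.8% of all genes (4 higher and 7 lower at an adjusted p under 0.05), with a median of -0.24. Postn, which encodes periostin, had 1507 and 1749.8 CPM in neonates and 274 and 315 CPM in adults (log2 fold change 2.47, SE 0.12, edgeR adjusted p = 1.9e-06). Kera, the proteoglycan keratocan, had 43 and 50 counts in neonates and 1 and 3 in adults, a ratio of 26.2 after scaling (95% exact counting interval 9.89 to 98.1, edgeR adjusted p = 2.7e-04). The log2 fold change of Kera was 4.62, against 4.02 without adult replicate 1 and 5.52 without adult replicate 2, and it fell under the filter without either neonatal library. Thbs1 (-1.64, SE 0.098, edgeR adjusted p = 4.5e-06) and Dcn, the fibril-binding proteoglycan decorin (-1.40, SE 0.13, edgeR adjusted p = 3.9e-05), fell in neonates. Thbs2 was higher by 0.88 on the log2 scale (SE 0.15, edgeR adjusted p = 8.7e-04) and passed 2-fold without neonate replicate 1, at 1.10, and Dpt passed it under library size alone, at -1.07.

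**Figure D4:**
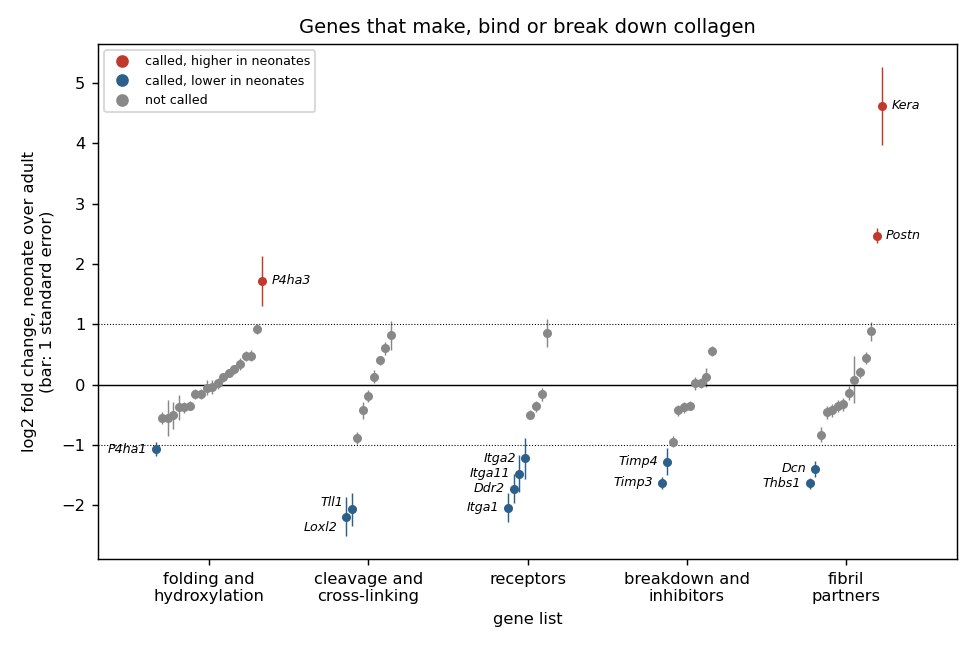
Log2 fold change (neonate over adult, with 1 standard error) of each tested gene of 5 collagen pathway lists, with the called genes named and dotted lines at a 2-fold change. Called genes of the cleavage, receptor and breakdown lists are all lower in neonates, from -2.19 for Loxl2 to -1.22 for Itga2.

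The remaining marker lists moved as follows. Fibroblast markers, for the cells that make most fibrillar collagen, summed to 1909 and 2189.8 CPM in neonates and 5055 and 5547 CPM in adults. All 8 had an adjusted p under 0.05, as had 62.3% of all genes, and a lower level in neonates. Of the 8, 3 were called (37.5%, against 20.8% of all genes). Dcn, Lum and Dpt of this list are also fibril partners above. The largest gap in this list was that of Gsn, at 351 and 415 CPM in neonates and 1900.3 and 2062 CPM in adults. Next was Dcn, at 466 and 586 CPM against 1269 and 1513 CPM, and the 5 genes not called were under 2-fold. Cell cycle markers went the other way, with all 8 called higher in neonates and sums of 733 to 854 CPM against 244 to 250.2 CPM. Of 5 fat markers tested 3 were called lower in neonates (60%), with sums of 141 to 187 CPM against 119 to 165 CPM. Most of the fat sum was Fabp4, which was not called, at 134 and 178 CPM in neonates and 94.1 and 125 CPM in adults. Of 5 skeletal muscle markers 1 was called lower (20%), with sums of 26.4 to 31.6 CPM against 49.4 to 54.1 CPM. That gene was Myh3, at 11.1 and 8.04 CPM in neonates and 33.3 and 31.6 CPM in adults. On the glomus list 1 was called higher and 2 lower (30% called), and both tested parathyroid markers were called higher. The part of these cells in the collagen changes was not tested. Neonate replicate 2 also held parathyroid signal, at a sum of 212 CPM against 0.0245 and 0.0504 CPM in adults. Leaving out neonate replicate 1 therefore does not part this signal from age.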

How the data were processed

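RNA of pooled CBs was sequenced after poly A+ selection. Per the submitters' processing notes and the study's methods the authors quantified reads with Salmon 1.5.2 on Rnor 6.0, after trimming and STAR mapping, and deposited estimated counts per gene, not normalized and not filtered. Between 5.02% and 6.19% of the values per library are fractional, among them those of 4 collagens (Col11a2, Col4a3, Col4a4 and Col15a1), whose levels are less certain. Strand use in counting is not given in the sources used here. Library totals of 36286178 to 39476111 put 3 counts at 0.0760 to 0.0827 CPM.

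Counts were rounded. By symbol, 636 genes annotated as non-coding in RefSeq (GRCr8) were removed. Genes that reached 1 CPM in 2 or more libraries were tested in R 4.3.3 with edgeR 4.0.16 (TMM, quasi-likelihood, no covariates), standard errors being the log2 fold change over the square root of F. Replicates of an age differed by more than sampling noise (chi-square per degree of freedom 36.8 in neonates and 17.1 in adults), and nothing says that the pools came from separate litters. Alternatives used DESeq2 1.42.0, limma 3.58.1 (voom), other scalings and filters, a replicate block and each library left out. The edgeR test was tried on simulated counts whose means and spread came from these libraries. Calls there used an adjusted p under 0.05 alone, so the 2-fold limit was not part of that trial. Every tested collagen could be named, and of each pathway list the 3 largest called changes in each direction. Values per library were planned for the most abundant collagen of each class and the 8 largest called changes in each direction. Both chains of each ratio pair were also to have them. For Col5a2, Col11a1, Col8a2 and Col13a1 log2 fold changes are given in place of levels. Members and lists were chosen with earlier results of these data known, as were 6 of the ratio pairs after the ratios were first seen (Col4a3/Col4a4, Col4a4/Col4a5, Col4a6/Col4a5, Col9a2/Col9a3, Col11a2/Col11a1 and Col5a3/Col5a1). Pathway and marker genes named outside that rule (P4ha2, Adamts2, Mmp14, Thbs2, Dpt, Itga2, Itga10 and the cartilage markers) were chosen after their values were seen.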

Additional observations from a re-analysis of the deposited data

How the results depend on the processing

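DESeq2, limma-voom, RLE size factors, no low-count filter, all biotypes kept and TMM without mitochondrial and ribosomal protein genes each called the same 16 collagens. A mean of at least 5 CPM left 13 called, Col4a6, Col6a4 and Col26a1 not being tested. With no minimum fold change 14 collagens were higher and 11 lower, and in the pathway lists 7 higher and 4 lower for folding, 3 and 4 for cleavage, 1 higher for receptors, 1 and 6 for breakdown and 4 and 7 for fibril partners. With a mean of at least 5 CPM, 0 folding genes were called higher, 1 cleavage gene and 2 receptors lower and 1 fibril partner higher. With no filter 1 breakdown gene was called higher. Under library size alone the median log2 fold change was -0.33 over all collagens, 0.04 for fibrillar, -1.57 for type IV and -0.16 for the others, and Col6a2 (-0.21) and Col13a1 (-0.10) changed sign, as did Col6a2 with a mean of at least 5 CPM (-0.01). The cause of these shifts was not tested beyond the genes lost to each filter.

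Leaving out 1 library gave 14 to 16 called collagens, an all-collagen median of -0.14 to 0.04, 0 to 1 folding genes higher and 0 to 1 lower, 0 to 1 receptors higher and 1 to 2 fibril partners higher. Of collagens far from any call, Col1a1 ran from -0.26 to 0.01, Col6a2 from -0.11 to 0.13 and Col22a1 from -0.42 to 0.14. An arm left with 1 library was assumed to vary like the other. The ratios of Col1a1 to Col1a2 and of Col6a3 to Col6a1 were planned but not analysed here.

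A fit with a replicate block called 8 collagens higher and 8 lower and changed no call of a collagen or of a pathway gene. The labels link libraries of the 2 ages by a replicate number and state no pairing. The correlation of the deviations from the age means was 0.0623 for neonate 1 and adult 1. With 2 libraries per age the other pair mirrors this one, so the value cannot show whether pools shared litters. With 2 libraries per age, the spread is estimated largely from other genes, and the few counts in the lower age (6 and 10 for Col6a4, 12 and 15 for Col4a6) limit the size of those changes.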
